A study of Arabidopsis thaliana with 12 samples.

Results

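The response of Arabidopsis thaliana seedlings to PS-SO3H nanoplastics was compared between root and leaf, gene by gene. PS-SO3H nanoplastics are polystyrene particles that carry sulfonic acid groups on their surface. The quantity examined was the log2 ratio of the PS-SO3H level over the control level in root minus the same log2 ratio in leaf, called the difference below. It was taken for every gene listed in both the root and the leaf table of that treatment, 22720 genes of the 24627 in either table and of the 24912 listed for the series. A further 1098 genes stood only in the root table and 809 only in the leaf table. They have no difference.

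All plants were wild-type Col seedlings, 10 days old, grown on half-strength MS medium. The groups were roots grown with PS-SO3H at 50 µg/ml, roots of untreated controls, leaves grown with PS-SO3H at 50 µg/ml, and leaves of untreated controls. Each group had 2 RNA-seq libraries. The labels do not say that the 2 libraries came from separate plants or cultures, so p-values measure only the spread between libraries, which may be technical. The tables give 1 fitted level per gene and group, on a scale normalized for library size, and no values per library, so the read depth is unknown and no library could be looked at or left out. Root and leaf were normalized separately, and a level in root set beside a level in leaf carries that limit throughout.

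Plants perceive injury and microbes through receptors at the cell surface, which set off calcium influx, MAP kinase cascades and a fast wave of transcription factors such as WRKY33 and ERF6. Jasmonate and ethylene carry this signal further, and in the mustard family it meets the glucosinolates, sulfur-rich defence compounds made from methionine or tryptophan and split by myrosinases when tissue is damaged. Glucosinolate synthesis draws on reduced sulfur and on PAPS, the activated sulfate donor made by APS kinases. Roots are in contact with the medium that holds the particles.

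The difference passed the test for 576 of 22720 genes, 2.54% of those tested (2-sided normal test of the difference, Benjamini-Hochberg adjusted p below 0.05, with standard errors recovered from the authors' p-values). It was positive, a response higher in root than in leaf, for 371 genes (1.63%), and negative for 205 genes (0.902%). The median difference over all genes was -0.01. In root, 1146 of these genes were called against control in the authors' deposited table (5.04%), 682 higher with PS-SO3H (3%) and 464 lower (2.04%). In leaf, 1041 were called (4.58%), 427 higher (1.88%) and 614 lower (2.7%). The responses met in 183 genes called in both tissues, 16.0% of the root calls and 17.58% of the leaf calls. Of these, 146 moved in the same direction and 37 in opposite directions.

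A positive difference came most often from a fall in leaf. Of the 371 genes, 225 were lower in leaf and not called in root, 93 were higher in root and not called in leaf, and 24 were higher in root and lower in leaf. A further 8 were lower in both tissues, 1 was higher in both, and 20 were called in neither. Of the 205 negative differences, 102 were higher in leaf and not called in root, 67 were lower in root and not called in leaf, and 13 were lower in root and higher in leaf, while 5 were lower in both, 4 higher in both and 14 called in neither. A call in 1 tissue alone did not amount to a difference: of 1821 such genes, 487 passed the test of the difference.

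The size of these counts, and the balance of positive and negative differences, depend on the settings. With adjusted p at most 0.001 and a difference of at least 1, 129 positive and 40 negative differences remained, 0.744% of the genes tested. The authors' fold changes are pulled towards 0 where reads are few. Undoing this by an approximation gave 1144 positive and 1165 negative differences, among the 18369 genes with a mean level of at least 10 in both tissues. Control levels from the tables of the other nanoplastic gave 818 and 762. The excess of positive differences was thus not kept with the shrinkage undone, and was small with the other control levels.

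**Figure D1:**
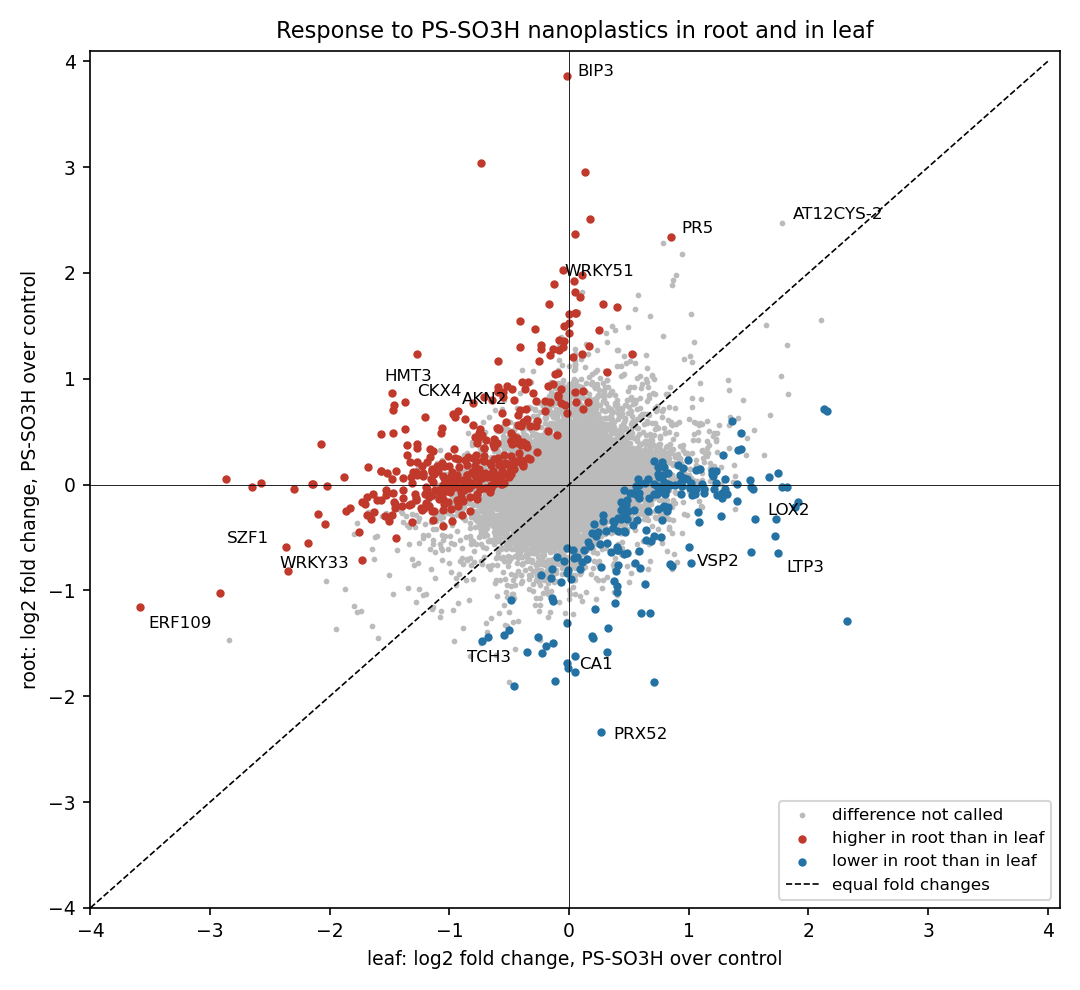
Log2 fold change of each of the 22720 genes with PS-SO3H over control, in root (vertical axis) against leaf (horizontal axis). Each point is a gene, red points have a response higher in root than in leaf (371 genes), blue points lower (205 genes), grey points were not called, and the dashed line marks equal fold changes; the red points lie mostly left of 0 along the leaf axis.

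Promoter sequence is shown for 3 genes whose responses are described below: WRKY33 and SZF1, which fell in leaf, and BIP3, which had the highest difference among genes with a mean level of at least 50 in both tissues and a gene symbol. They were picked after the elements in them had been counted, and are examples. Each line holds the 250 bases before the annotated start, 5′ to 3′ on the gene's own strand, from RefSeq's TAIR10.1 assembly. Capitals mark the W-box (TTGACC or TTGACT, either strand), the element that WRKY factors bind, in the WRKY33 and SZF1 promoters. In the BIP3 promoter they mark the G-box (CACGTG, either strand), an element of bZIP and bHLH factors.
WRKY33, chr2:16107985-16108234, plus strand: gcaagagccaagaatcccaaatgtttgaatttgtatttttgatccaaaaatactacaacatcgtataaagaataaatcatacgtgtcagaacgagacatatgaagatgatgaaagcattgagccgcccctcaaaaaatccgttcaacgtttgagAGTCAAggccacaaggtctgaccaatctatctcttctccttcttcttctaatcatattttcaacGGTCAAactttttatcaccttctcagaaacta
SZF1, chr3:20775970-20776219, plus strand: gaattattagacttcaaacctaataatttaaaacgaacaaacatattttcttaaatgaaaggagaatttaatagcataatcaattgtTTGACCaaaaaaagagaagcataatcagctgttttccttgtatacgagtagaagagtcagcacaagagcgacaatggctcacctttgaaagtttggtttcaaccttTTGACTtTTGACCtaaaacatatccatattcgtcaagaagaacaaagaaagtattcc
BIP3, chr1:2931851-2932100, minus strand: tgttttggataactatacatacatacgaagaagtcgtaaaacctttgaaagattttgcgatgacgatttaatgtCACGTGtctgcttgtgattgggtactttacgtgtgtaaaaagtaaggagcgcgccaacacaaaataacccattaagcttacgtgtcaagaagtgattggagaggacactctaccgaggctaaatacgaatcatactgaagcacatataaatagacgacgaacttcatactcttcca

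The WRKY33 window held 2 W-boxes, both read from the opposite strand, and the SZF1 window held 3. In the 300 bases from 250 before to 50 after the start, a W-box stood in 36.12% of the 371 positive differences. The share was 33.17% of the 205 negative differences and 32.76% of the 22525 genes of both tables that have a promoter in the reference. Of the 371, the 225 lower in leaf and not called in root had 45.33%. The 93 of the 371 that were higher in root and not called in leaf had 19.35%. The G-box was present in 14.82% of the 371, 11.22% of the 205, 16% of the 225, 12.9% of the 93 and 8.488% of the 22525. The CGCG box (ACGCGT), bound by calmodulin-binding transcription activators, was present in 5.66%, 2.927%, 8.889%, 1.075% and 2.331% in the same order. The GCC box (GCCGCC), bound by ethylene response factors, was present in 2.695%, 3.902%, 3.111%, 1.075% and 2.619%. CCAAT and CACG with 9 bases between were searched for after the BIP3 values had been seen. This pattern was found in 0 of the 371 and 0 of the 205 promoters with a called difference and in 36 of the 22525. The endoplasmic reticulum stress element has a different spacing, which was not searched for. These counts therefore do not show where that element is present or absent. A match says only that these letters stand in the window.

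Many glucosinolate genes had a response higher in root than in leaf. Of 27 listed genes 26 were measured in both tissues, since MYB76 was not in both tables. The difference was positive and called for 16 of the 26 and negative and called for 0, against 1.63% and 0.902% of all genes. The median difference was 0.84, against -0.01 over all genes, and the highest of the lists examined; among genes with a mean level of at least 50 in both tissues it was 0.80, below the 0.85 of early immune genes. In leaf 18 of the 26 were lower with PS-SO3H and 0 higher; in root 7 were higher and 3 lower.

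Of the enzymes that lengthen the methionine side chain, BCAT4, MAM1 and IPMI1 moved in opposite directions in the 2 tissues. BCAT4, the aminotransferase that opens this pathway, had a level of 6780 in PS-SO3H roots and 4843 in control roots, and of 2395 in PS-SO3H leaves and 5028 in control leaves. It rose in root and fell in leaf, and its difference was 1.56 ± 0.16 (SE). MAM1, a methylthioalkylmalate synthase, had levels of 2650 in PS-SO3H roots and 1837 in control roots, against 4892 in PS-SO3H leaves and 8177 in control leaves, a difference of 1.27 ± 0.16. IPMI1, the small subunit of the isomerase of this pathway, followed the same course with 3027 in PS-SO3H roots and 2398 in control roots, and 990 in PS-SO3H leaves and 2211 in control leaves. Its difference was 1.49 ± 0.18. IPMI2, also of chain elongation, was called in leaf alone, where it fell to 1560 with PS-SO3H, against 2290 in control leaves. Its root levels were 2572 with PS-SO3H and 2803 in controls. MAM3, which makes longer chains, rose in root, with 9084 in PS-SO3H roots and 7348 in control roots, while its leaf level of 690 with PS-SO3H and 830 in controls was not called. MAM3 lies just inside the threshold, at an adjusted p of 0.0499.

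Most enzymes that build the glucosinolate core fell in leaf. Of the tryptophan-branch P450s CYP79B2, CYP79B3 and CYP83B1, only CYP79B3 was called lower there. CYP79F1, the first P450 of the methionine branch, had 1622 in PS-SO3H leaves and 4501 in control leaves. In root it was near silent, with 18.7 and 11.5. Its log2 fold change was 0.70 in root, not called, and -1.47 in leaf. The difference of 2.18 ± 0.41 thus rests mostly, not wholly, on the leaf. CYP79B3, the first P450 of the tryptophan branch, had 8548 in PS-SO3H roots and 6379 in control roots, against 2095 in PS-SO3H leaves and 3384 in control leaves, and its difference was 1.11 ± 0.17. Its partner CYP79B2 rose in root, with 12111 in PS-SO3H roots and 8440 in control roots, and had 1311 in PS-SO3H leaves and 1971 in control leaves, not called. The following P450 of that branch, CYP83B1, rose in root to 20049, against 13668 in control roots. Its leaf levels of 6215 with PS-SO3H and 8207 in controls were not called. The sulfotransferases that finish the core, SOT16, SOT17 and SOT18, had differences of 0.98 ± 0.18, 1.30 ± 0.21 and 1.11 ± 0.17; SOT16 rose in root and all 3 fell in leaf.

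Enzymes that change the finished side chain did not share 1 course. FMOGS-OX1 and FMO GS-OX3 oxidize the sulfur of the side chain. FMO GS-OX3 had levels of 365 in PS-SO3H roots and 254 in control roots, and of 426 in PS-SO3H leaves and 1101 in control leaves, a difference of 1.90 ± 0.23. FMOGS-OX1 had 73.8 in PS-SO3H roots and 43.9 in control roots, not called, and fell to 375 in PS-SO3H leaves, against 1033 in control leaves, a difference of 2.21 ± 0.35. CYP81F2, which hydroxylates indole glucosinolates, fell in both tissues, to 91.5 in PS-SO3H roots against 202 in control roots and to 481 in PS-SO3H leaves against 1668 in control leaves; its difference of 0.65 ± 0.30 was not called. MYB51, an activator of the indole branch, likewise fell in both, with 154 in PS-SO3H roots and 316 in control roots, and 429 in PS-SO3H leaves and 1192 in control leaves. IGMT2, which methylates the hydroxylated product, fell in root alone, with 108 in PS-SO3H roots and 303 in control roots, and its difference of -0.75 ± 0.35 was not called. IGMT1 was called in leaf alone, where it fell to 655 with PS-SO3H, against 1049 in control leaves.

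MYB29, an activator of the methionine branch, fell to 108 in PS-SO3H leaves, against 347 in control leaves, and was near silent in root, with 2.12 and 2.3. Its difference of 1.57 ± 0.34 fell to 0.84 and was no longer called when the control levels were taken from the tables of the other nanoplastic. MYB28, MYB34 and MYB122 had differences of 0.18, 0.50 and -0.13 that were not called.

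**Figure D2:**
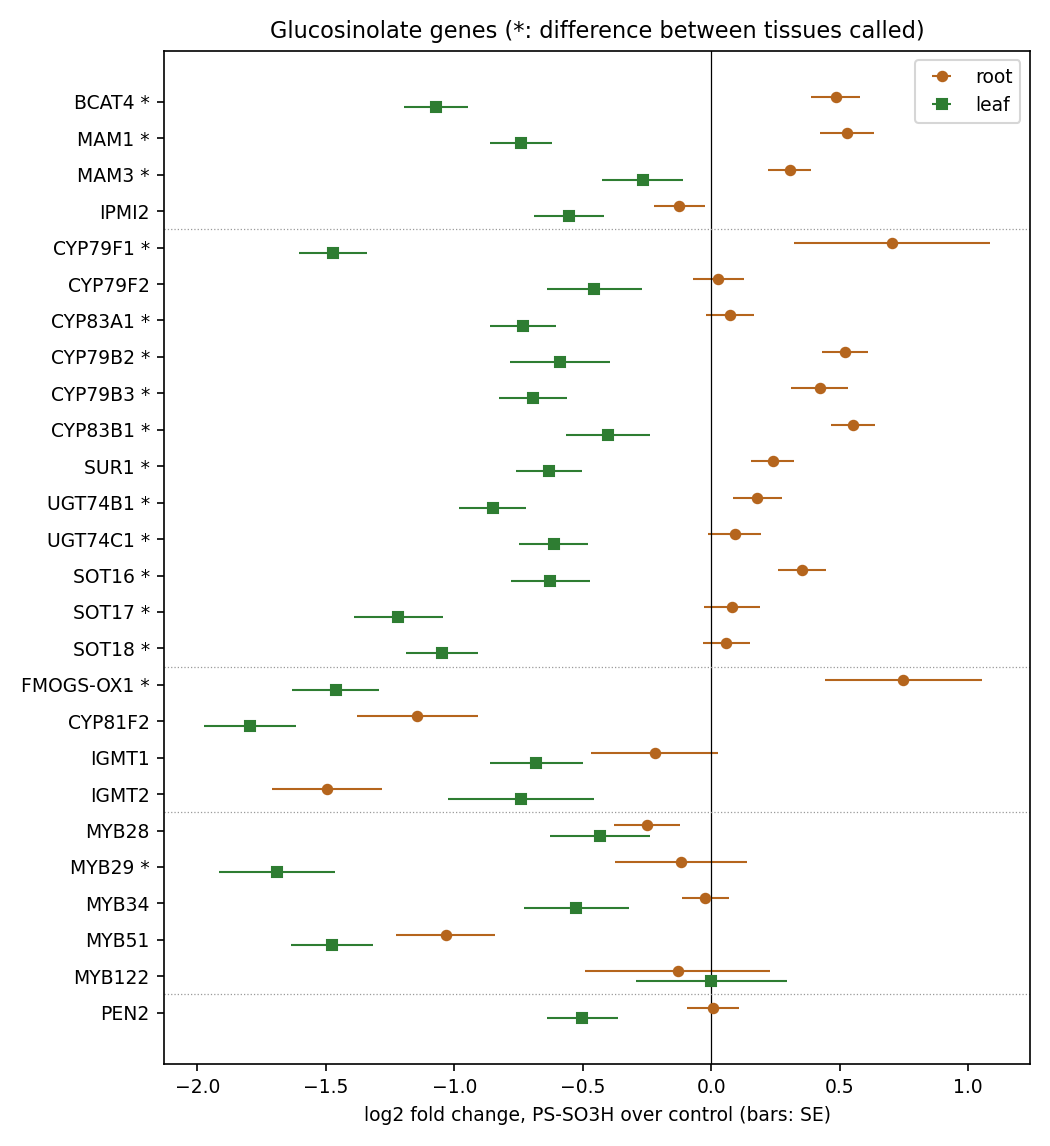
Log2 fold change with PS-SO3H over control for the 26 glucosinolate genes measured in both tissues, in root (circles) and leaf (squares), with bars of 1 SE; dotted lines part chain elongation, core synthesis, side-chain enzymes, regulators and the myrosinase PEN2, and stars mark the 16 called differences. The core enzymes lie right of 0 or near it in root and left of 0 in leaf.

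Among the genes called in opposite directions were some that supply activated sulfate and methyl groups, described here because of that pattern. AKN2, an APS kinase that makes PAPS, had 5204 in PS-SO3H roots and 3281 in control roots, and 1801 in PS-SO3H leaves and 3524 in control leaves. Its difference was 1.63 ± 0.16, with a call in each tissue. APK, the APS kinase listed under that name, had 3308 in PS-SO3H roots and 2597 in control roots, and 1382 in PS-SO3H leaves and 2262 in control leaves. HMT3, a homocysteine S-methyltransferase of the methionine cycle, had 139 in PS-SO3H roots and 76.2 in control roots, and 338 in PS-SO3H leaves and 940 in control leaves, a difference of 2.34 ± 0.31. Of the 37 genes called in opposite directions, 24 were higher in root and lower in leaf. The highest and lowest of the 37 have no symbol in the reference used and lower levels. AT1G62515 had 46.0 in PS-SO3H roots and 19.5 in control roots, and 92.4 in PS-SO3H leaves and 223 in control leaves, a difference of 2.50. AT3G14340 had 15.4 in PS-SO3H roots and 37.4 in control roots, and 35.5 in PS-SO3H leaves and 7.12 in control leaves, a difference of -3.60 and the lowest of all called genes; it was picked after its value was seen.

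Of the 15 sulfur limitation genes, 4 had a positive and 4 a negative called difference, against 1.63% and 0.902% of all genes, with a median of 0.11. APR1, which reduces APS on the way to cysteine, fell to 1069 in PS-SO3H leaves, against 3800 in control leaves, and stood at 3403 in PS-SO3H roots and 3958 in control roots; its difference was 1.61 ± 0.17. SDI2 fell in leaf to 158, against 575 in control leaves, with a difference of 1.61 ± 0.28. The high-affinity sulfate transporter SULTR1;2 fell in root, with 9419 in PS-SO3H roots and 14439 in control roots, and had 546 in PS-SO3H leaves and 410 in control leaves, a difference of -1.03 ± 0.20. SULTR4;2, which releases sulfate from the vacuole, had a difference of -0.87 ± 0.23. BGLU28, a glucosidase induced by sulfur limitation, rose in leaf to 258, against 88.9 in control leaves, and stood at 7.4 in PS-SO3H roots and 7.6 in control roots.

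Many early immune genes fell further in leaf than in root. Of 19 listed genes 8 had a positive called difference and 0 a negative one, against 1.63% and 0.902% of all genes, and the median difference was 0.58. In leaf 9 of the 19 were lower and 0 higher; in root 3 were lower and 2 higher. SZF1, a CCCH zinc finger protein of the fast defence response, had 739 in PS-SO3H roots and 1116 in control roots, and 1416 in PS-SO3H leaves and 7309 in control leaves. It fell in both tissues, and its difference was 1.77 ± 0.21. WRKY33, a regulator of camalexin synthesis, had 730 in PS-SO3H roots and 1074 in control roots, and 758 in PS-SO3H leaves and 3435 in control leaves, a difference of 1.62 ± 0.19. These are the genes whose W-boxes are printed above.

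The kinase MPK3 and the oxidase RBOHD, which makes extracellular superoxide, were called lower in leaf and not called in root, and both differences were called. MPK3 had 1195 in PS-SO3H roots and 1358 in control roots, and 1626 in PS-SO3H leaves and 4466 in control leaves, a difference of 1.27 ± 0.17. RBOHD had 2220 in PS-SO3H roots and 2643 in control roots, and 2497 in PS-SO3H leaves and 5463 in control leaves, a difference of 0.88 ± 0.16. WRKY40 fell to 326 in PS-SO3H leaves, against 1345 in control leaves, with 38.4 in PS-SO3H roots and 49.6 in control roots; its call was lost when the shrinkage was undone. The zinc finger gene ZAT12 rose in root, to 379 against 252 in control roots, while its leaf levels of 317 with PS-SO3H and 456 in controls were not called.

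A few ethylene and calcium genes also fell further in leaf than in root. Of 16 ethylene genes 3 had a positive called difference and 0 a negative one, against 1.63% and 0.902% of all genes, with a median of 0.35 and with 8 lower in leaf and 2 lower in root, although undoing the shrinkage turned that median to -0.18. ERF6, an early ethylene response factor, had 317 in PS-SO3H roots and 559 in control roots, and 388 in PS-SO3H leaves and 1972 in control leaves, a difference of 1.53 ± 0.23. ERF109 fell to 20.3 in PS-SO3H leaves, against 243 in control leaves, and to 5.13 in PS-SO3H roots, against 11.4 in control roots. ACS6, which makes the ethylene precursor, had a difference of 0.89 ± 0.24. Of 10 touch and calcium genes 2 had a positive and 1 a negative called difference, against the same shares of all genes, with a median of 0.48. Of these genes 6 were lower in leaf and 3 in root. The calcium-dependent kinase CPK32 had 1228 in PS-SO3H roots and 1362 in control roots, and 683 in PS-SO3H leaves and 2081 in control leaves. TCH3, a calmodulin-like protein, ran the other way, with 469 in PS-SO3H roots and 1272 in control roots, and 15124 in PS-SO3H leaves and 24239 in control leaves, a difference of -0.76 ± 0.18.

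**Figure D3:**
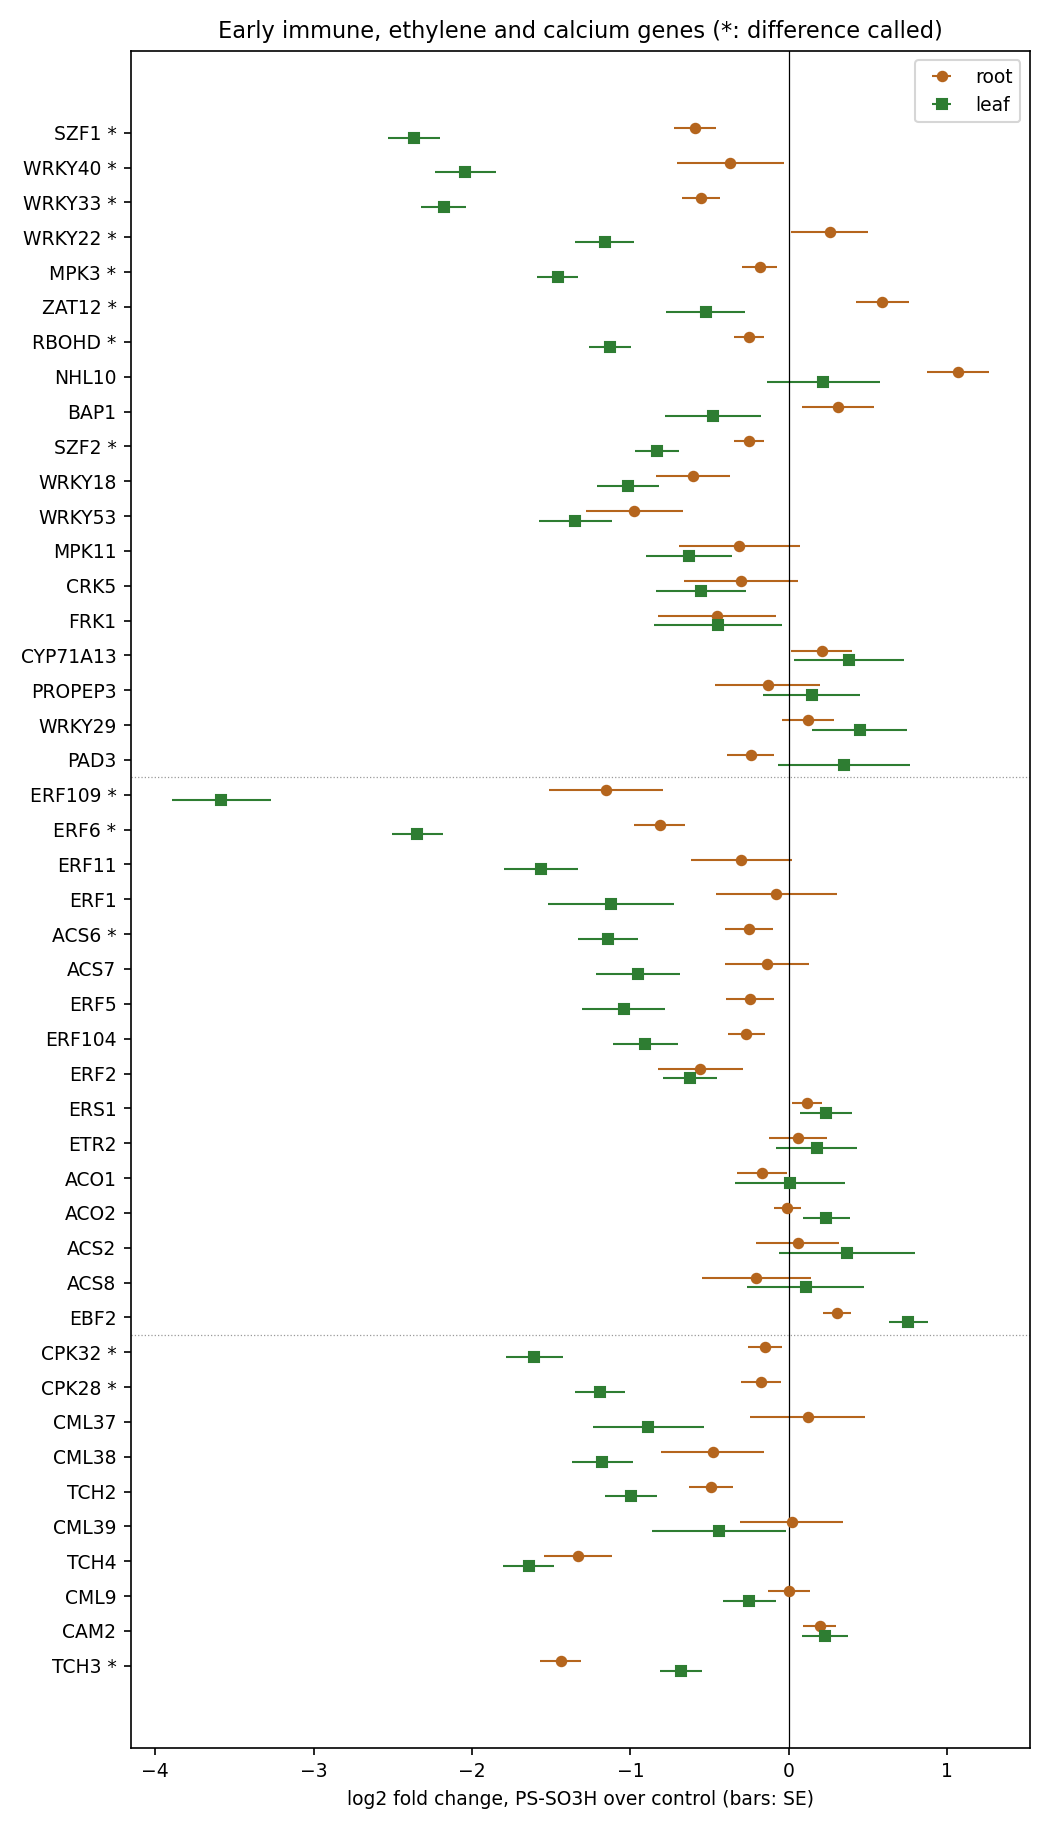
Log2 fold change with PS-SO3H over control for early immune genes (top block), further ethylene genes (middle) and further touch and calcium genes (bottom), in root (circles) and leaf (squares), with bars of 1 SE; stars mark called differences. Most leaf values lie left of the root values, and TCH3 is the called exception.

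Jasmonate genes moved in both directions. Of 26 measured members 4 had a positive and 4 a negative called difference, against 1.63% and 0.902% of all genes, with a median of 0.20. In leaf 12 were lower and 5 higher. MYC2, the master transcription factor, had 1628 in PS-SO3H roots and 1895 in control roots, and 1609 in PS-SO3H leaves and 4421 in control leaves, a difference of 1.24 ± 0.17. JAZ7, a repressor of MYC2, fell to 90.6 in PS-SO3H leaves, against 447 in control leaves, with 29.0 in PS-SO3H roots and 29.9 in control roots, and lost its call when the shrinkage was undone. JAZ10 fell in both tissues, with 38.3 in PS-SO3H roots and 88.5 in control roots, and 263 in PS-SO3H leaves and 896 in control leaves.

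Enzymes of jasmonate synthesis moved both ways in leaf: LOX2, AOC2 and AOS rose, LOX4 and AOC3 fell, and LOX3, AOC1 and OPR3 were not called. LOX2, the chloroplast lipoxygenase of this pathway, rose to 29959 in PS-SO3H leaves, against 10227 in control leaves, and was near silent in root, with 12.3 and 15.5; its difference was -1.88 ± 0.42. AOC2, an allene oxide cyclase, rose to 8128 in PS-SO3H leaves, against 3334 in control leaves, a difference of -1.01 ± 0.28. LOX4, another lipoxygenase, fell to 591 in PS-SO3H leaves, against 2421 in control leaves, and AOC3 fell to 308, against 608 in control leaves; their differences of 1.12 and 0.69 were not called. VSP2, a vegetative storage protein and a standard jasmonate marker, moved in opposite directions, with 4959 in PS-SO3H roots and 7464 in control roots, and 4616 in PS-SO3H leaves and 2310 in control leaves. Its difference was -1.59 ± 0.19. Its close relative VSP1 rose in root, with 3802 in PS-SO3H roots and 2716 in control roots, and was not called in leaf; reads of such near copies may be shared between them by the authors' counting.

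Of 23 salicylic acid genes 2 had a positive and 1 a negative called difference, against 1.63% and 0.902% of all genes, with a median of 0.39. WRKY70, which promotes salicylic acid responses, had 144 in PS-SO3H roots and 78.2 in control roots, and 1433 in PS-SO3H leaves and 2159 in control leaves, a difference of 1.47 ± 0.31. PR5, a pathogenesis-related protein, rose in both, with 44.9 in PS-SO3H roots and 8.90 in control roots, and 1135 in PS-SO3H leaves and 630 in control leaves. FMO1, an enzyme of systemic immunity, fell in root, with 22.7 in PS-SO3H roots and 58.1 in control roots, and had 92.2 in PS-SO3H leaves and 73.4 in control leaves. The calls of PR5 and FMO1 were lost with a pseudocount of 10. WRKY51, outside this list and a WRKY factor linked to defence, rose in root, with 278 in PS-SO3H roots and 74.9 in control roots, and stood at 95.5 in PS-SO3H leaves and 104 in control leaves, a difference of 2.02 ± 0.42.

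The highest difference of all named genes was that of BIP3, an endoplasmic reticulum chaperone induced when proteins misfold. Its level was 128 in PS-SO3H roots and 8.84 in control roots, against 80.3 in PS-SO3H leaves and 81.3 in control leaves, a difference of 3.88 ± 0.51 (adjusted p 4.8e-11). Among 16 endoplasmic reticulum stress genes, a list chosen after BIP3 had been seen, BIP3 alone was called, against 2.54% of all genes. The median difference of this list was 0.01. UPOX, a mitochondrial stress gene, rose in root, with 204 in PS-SO3H roots and 63.5 in control roots, and had 169 in PS-SO3H leaves and 128 in control leaves, a difference of 1.28 ± 0.35. It was the only called difference among 12 mitochondrial stress genes, against 2.54% of all genes. Some genes with no symbol in the reference used, at a mean level of at least 50 in 1 tissue only, also differed widely. Their function was not examined. AT1G18830 rose in root, with 109 in PS-SO3H roots and 13.3 in control roots, and had 8.57 in PS-SO3H leaves and 14.3 in control leaves, a difference of 3.78 ± 0.55. AT3G22275 fell in leaf to 16.2, against 118 in control leaves, a difference of 2.93 ± 0.45, and AT4G39675 fell in root to 47.2, against 172 in control roots, a difference of -2.58 ± 0.51. CKX4, which breaks down cytokinins, rose in root to 394, against 230 in control roots, and fell in leaf to 84.4, against 218 in control leaves.

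**Figure D4:**
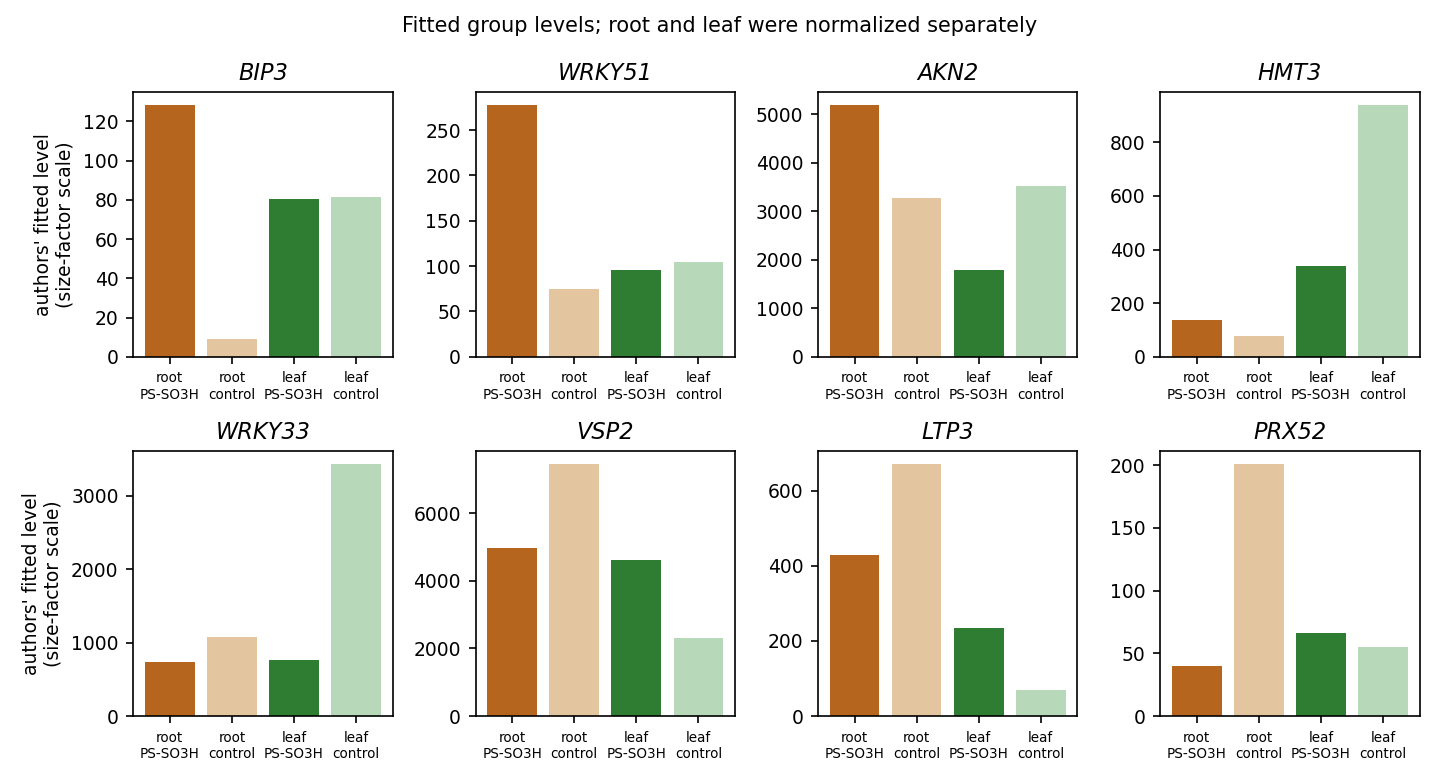
Authors' fitted level of 8 genes in PS-SO3H roots, control roots, PS-SO3H leaves and control leaves (bars from left to right; size-factor scale starting at 0, no error available). BIP3 stood at 128 in PS-SO3H roots and 8.84 in control roots, and at 80.3 and 81.3 in PS-SO3H and control leaves; VSP2 and LTP3 fell in root and rose in leaf.

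Several of the lowest differences belonged to genes of the cell wall and the surface. PRX52, a class III peroxidase, fell in root, with 39.6 in PS-SO3H roots and 201 in control roots, and had 65.8 in PS-SO3H leaves and 54.7 in control leaves, a difference of -2.61 ± 0.48. LTP3, a lipid transfer protein, had 428 in PS-SO3H roots and 671 in control roots, and rose in leaf to 235, against 70.1 in control leaves, a difference of -2.40 ± 0.31. LTP2 and LTP5 also fell in root and rose in leaf, with differences of -0.90 and -0.92. AZI1, a lipid transfer-like protein of systemic immunity, fell in root, with 1726 in PS-SO3H roots and 4005 in control roots, and had 4304 in PS-SO3H leaves and 2690 in control leaves. Of 18 cell wall loosening genes 1 had a positive and 3 a negative called difference, against 1.63% and 0.902% of all genes, with a median of 0.11. EXPA8, an expansin, fell in leaf to 82.2, against 245 in control leaves, a difference of 2.05 ± 0.33, while EXPA1 fell in root, with 1148 in PS-SO3H roots and 2158 in control roots, a difference of -1.29 ± 0.22.

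Detoxification, flavonoid and antioxidant genes had median differences at or below 0. Of 28 glutathione S-transferases 2 had a positive and 3 a negative called difference, against 1.63% and 0.902% of all genes, with a median of -0.14. GSTF11 fell in leaf, with 128 in PS-SO3H leaves and 471 in control leaves, a difference of 1.95 ± 0.28, whereas GSTF6 fell in root, with 390 in PS-SO3H roots and 651 in control roots, a difference of -1.29 ± 0.39. DTX1, an efflux transporter of toxic compounds, rose in leaf to 586, against 184 in control leaves, and stood at 61.1 in PS-SO3H roots and 58.3 in control roots. Of 20 flavonoid and anthocyanin genes 0 had a positive and 3 a negative called difference, against the same shares of all genes, with a median of -0.38. UGT79B1, which glycosylates anthocyanins, rose in leaf to 261, against 58.4 in control leaves, and lost the call of its difference when the shrinkage was undone. F3'H, which hydroxylates flavonoids, fell in root, with 966 in PS-SO3H roots and 1483 in control roots, a difference of -1.02 ± 0.28. Of 21 antioxidant enzymes 3 had a negative and 0 a positive called difference, against 0.902% and 1.63% of all genes, with a median of -0.04. Among the 3 was the superoxide dismutase CSD1 at -0.84 ± 0.20.

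Transport and nutrient genes differed in single members. Of 19 aquaporins 2 had a positive and 1 a negative called difference, against 1.63% and 0.902% of all genes, with a median of 0.21. PIP1;5, a water channel of the plasma membrane, had 6674 in PS-SO3H roots and 4220 in control roots, and 3854 in PS-SO3H leaves and 5190 in control leaves, a difference of 1.09 ± 0.16. OPT3, which loads iron and copper into the phloem, rose in root, with 2316 in PS-SO3H roots and 1358 in control roots, a difference of 0.84 ± 0.20. SWEET15, a sucrose exporter of ageing tissue, rose in leaf to 82.9, against 22.1 in control leaves, a difference of -2.08 ± 0.53. IPS1, a noncoding RNA of phosphate starvation, rose in leaf to 1894, against 571 in control leaves. In root it was near silent, with 19.7 with PS-SO3H and 24.7 in controls. Its difference of -2.05 ± 0.42 thus rests mostly on the leaf. It was the only called difference among 18 phosphate starvation genes, against 2.54% of all genes, although 4 of the 18 were called higher in leaf.

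Some responses were called in the same direction in both tissues. AT12CYS-2, a mitochondrial stress gene, had 99.9 in PS-SO3H roots and 18.0 in control roots, and 242 in PS-SO3H leaves and 70.5 in control leaves, and its difference of 0.69 ± 0.42 was not called. SOT12, a sulfotransferase, had 962 in PS-SO3H roots and 424 in control roots, and 1023 in PS-SO3H leaves and 525 in control leaves, with a difference of 0.22 ± 0.22 that was not called. UGT74E2, which glycosylates an auxin, and AT2G41730, without a symbol in the reference used, also rose in both. Their differences of -0.44 ± 0.33 and 0.59 ± 0.31 were not called. AT3G24420 rose in both and rose further in leaf, with 808 in PS-SO3H roots and 492 in control roots, and 453 in PS-SO3H leaves and 104 in control leaves, a called difference of -1.41 ± 0.29. TCH4, a xyloglucan endotransglucosylase, fell in both, with 182 in PS-SO3H roots and 459 in control roots, and 3879 in PS-SO3H leaves and 12118 in control leaves, a difference of 0.31 ± 0.27 that was not called. No difference was called among the 16 heat shock, 17 auxin, 19 cell cycle, 14 clock and 20 suberin and endodermis genes, whose medians lay between -0.05 and 0.14. Of the other lists, nitrogen had 1 negative call in 14 genes, hypoxia 1 negative in 15, lignin 1 positive in 16, iron 2 positive in 22, cold and drought 1 positive and 2 negative in 23, and dark and sugar starvation 1 of each in 13. Over all genes 1.63% were called positive and 0.902% negative, and a single call is not read as a result about its list.

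Photosynthesis RNA was measured in root at levels far below those of leaf. Over 16 photosynthesis genes the root levels with PS-SO3H lay between 24.5 and 4869, and the leaf levels with PS-SO3H between 13932 and 443144. All 16 differences were negative, with a median of -0.36. Of the 16, 2 had a called difference, against 0.902% of all genes called negative. In root 6 were lower with PS-SO3H, against 2.04% of all genes. RBCS2B, a Rubisco small subunit, had 24.5 in PS-SO3H roots and 81.5 in control roots, and 117056 in PS-SO3H leaves and 117746 in control leaves, a difference of -1.73 ± 0.37. CA1, a chloroplast carbonic anhydrase outside that list, had 28.0 in PS-SO3H roots and 90.3 in control roots, and 124915 in PS-SO3H leaves and 126449 in control leaves. Less green tissue in a root sample and less of this RNA per cell cannot be told apart in bulk samples. The part of such tissue in the results for these genes was not tested. Of 13 root marker genes 0 differences were called, although 3 of the 13 were called higher with PS-SO3H in root, against 3% of all genes. Of 7 seed storage genes 3 were measured, with 0 called.

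**Figure D5:**
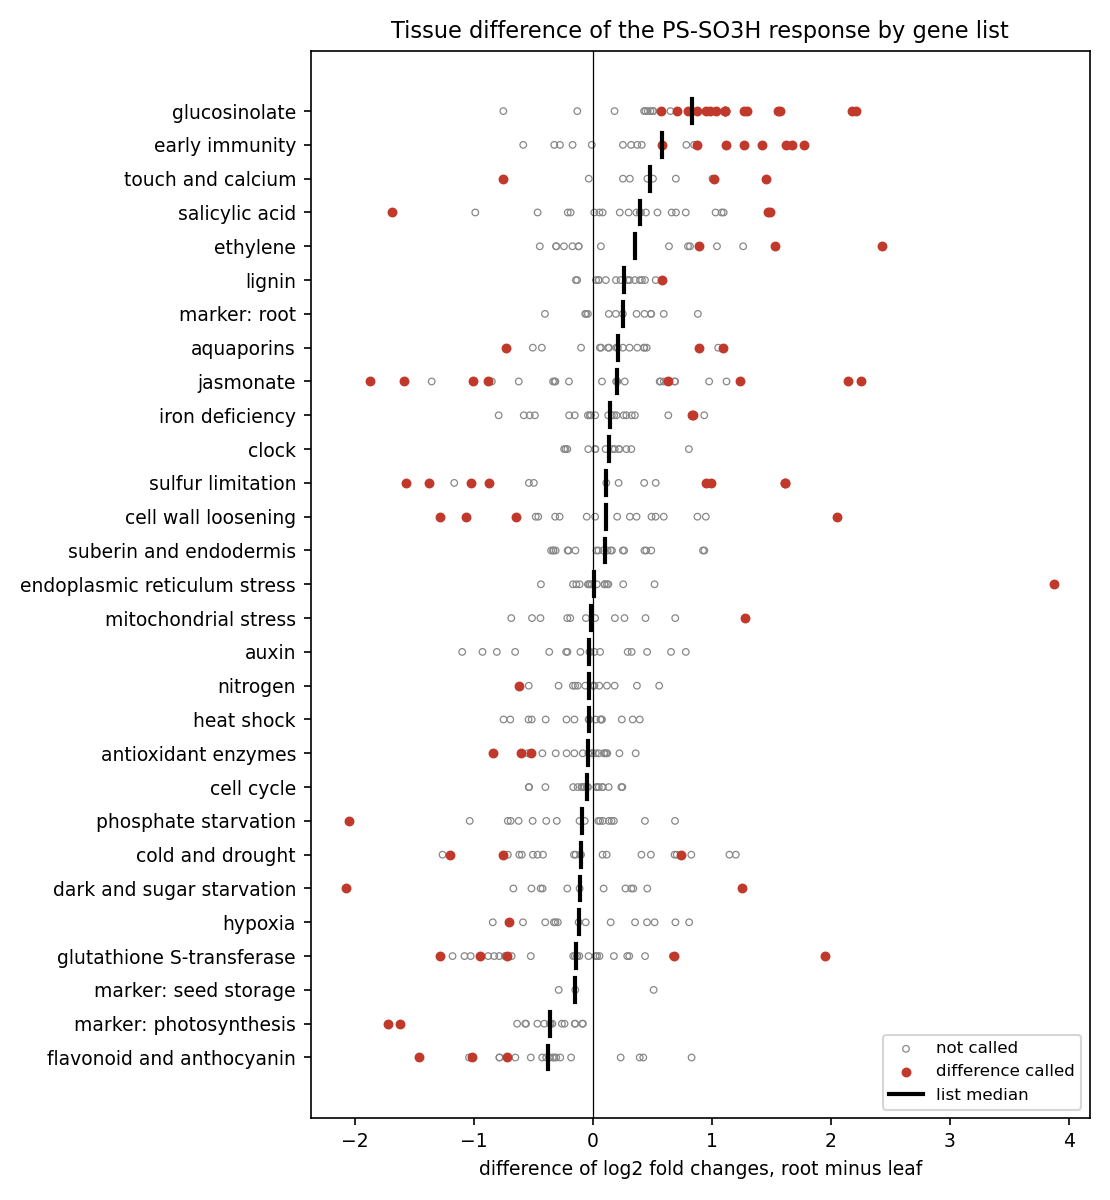
Difference of log2 fold changes, root minus leaf, for every measured member of 29 gene lists, ordered by list median (black bar). Red points passed the test and grey circles did not; over all measured members glucosinolate genes have the highest median (0.84) and flavonoid and anthocyanin genes the lowest (-0.38).

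Precision set what could be seen. The median standard error of the difference was 0.285 over all genes, 0.239 where the mean level was at least 50 in both tissues and 0.412 where it was under 10 in a tissue. At levels of at least 50 in both tissues, the called differences had a median size of 0.97 and a smallest size of 0.49. Of the 576 calls, 42 positive and 16 negative had a level under 10 in a tissue; in such genes the fold change of that tissue is pulled towards 0 and the difference can rest largely on the other tissue. Just inside the threshold stood UGT85A4 with an adjusted p of 0.0493 and DHAR2 with 0.0499, and just outside AT5G24210 with 0.05004 and AT4G34750 with 0.0504.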

How the data were processed

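Leaf and root RNA of 10-day-old seedlings was sequenced, with 2 libraries per group. The authors deposited 1 table per treatment and tissue, named after DESeq2, with a fitted level per group, a signal normalized for library size. The same deposited tables give a log2 fold change and a p-value with its adjusted value per gene; the sources used here do not name the counting program or any version. The genome build was TAIR10, per the submitters' processing notes. The series text also describes small RNA libraries and stricter limits, and the tables do not show which of its steps were applied. Of 4 tables, 2 were used for the results and the 2 for the other nanoplastic for an alternative.

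Each standard error was the fold change divided by the normal quantile of its p-value. The difference is root minus leaf, with squared errors added, a 2-sided normal test and Benjamini-Hochberg adjustment over 22720 genes. The calculation was run on fold changes simulated from a normal distribution with the recovered standard errors. Such data meet the assumptions of the test by design. The run therefore checks the arithmetic, and cannot show whether the test holds with shrunken fold changes or 2 libraries per group. Levels, tissue fold changes and tissue calls in the text come from the authors' deposited tables; differences were computed here. Promoters were read from TAIR10.1 at its own annotation, to which 22527 loci matched.

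Named genes were the 10 highest and 10 lowest called differences among genes that have a symbol and average 50 or more in each tissue, genes at that level called in opposite or the same directions, up to 4 called members per list, and the 5 highest and 5 lowest with that level in 1 tissue only. IPMI1 and others outside the gene lists come from this rule; APK, LTP2, LTP5, MAM1, MAM3 and the further list members were chosen after their values were seen. Members and lists were chosen with earlier results of these data known. Python 3.11.15, numpy 2.4.6, scipy 1.17.1 and pandas 2.3.3 were used.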

Additional observations from a re-analysis of the deposited data

Results flagged for a closer look

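The response differed between root and leaf by the test of the difference itself for 576 genes, among them 83 of the 91 genes named by rule. Each value below is the difference of log2 fold changes, root minus leaf, and the order is that among these 83 genes. Positive differences were led by BIP3 3.88, AT1G18830 3.78, AT3G22275 2.93, TDR1 2.63, ZAT11 2.59, AT1G62515 2.50, ERF109 2.43, HMT3 2.34, JAZ7 2.26, FMOGS-OX1 2.21 and CYP79F1 2.18. Next came CKX4 2.15, JAZ8 2.15, EXPA8 2.05, WRKY51 2.02, CNI1 2.01, GSTF11 1.95, FMO GS-OX3 1.90, SZF1 1.77, WRKY40 1.67, AKN2 1.63 and WRKY33 1.62. Lower positive differences were SDI2 1.61, APR1 1.61, AT1G52190 1.59, MYB29 1.57, BCAT4 1.56, ERF6 1.53, IPMI1 1.49, PR5 1.49, WRKY70 1.47, CPK32 1.46 and WRKY22 1.42. Further positive values were UPOX 1.28, BGAL4 1.26, PIP1;5 1.09, CPK28 1.02, TIP2;1 0.89, ACS6 0.89, OPT3 0.84, NAS1 0.83, COR413-PM1 0.74 and 4CL1 0.58. The most negative were PRX52 -2.61, AT4G39675 -2.58, LTP3 -2.40, DIN2 -2.21, EXPA16 -2.16, SWEET15 -2.08, IPS1 -2.05, AZI1 -1.89, LOX2 -1.88, RBCS2B -1.73 and FMO1 -1.69. These were followed by CA1 -1.67, AT1G69160 -1.62, CAB2 -1.62, DTX1 -1.61, VSP2 -1.59, BGLU28 -1.57, UGT79B1 -1.47, AT5G01870 -1.44, GRP9 -1.41, AT3G24420 -1.41 and BGLU11 -1.40. Less negative were GGCT2;1 -1.38, EXPA1 -1.29, GSTF6 -1.29, RD20 -1.21, EXPA10 -1.07, F3'H -1.02, GSTU24 -0.95, CSD1 -0.84, KIN2 -0.76, TCH3 -0.76 and PIP2;3 -0.73. Nearer to 0 lay UGT78D2 -0.73, GSTU7 -0.72, RAP2.3 -0.71, EXPA4 -0.65, LBD39 -0.63, DHAR2 -0.61 and DHAR1 -0.52.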

How the results depend on the processing

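No paired analysis was possible because the tables hold no values per library, and for the same reason no replicate could be left out. With adjusted p at most 0.001 and a size of at least 1, 129 positive and 40 negative differences, 135 root calls, 261 leaf calls, 12 calls in both tissues and 0 in opposite directions remained; at an unadjusted p below 0.05, 2028 differences passed. Control levels from the tables of the other nanoplastic gave 818 positive and 762 negative differences among 22373 genes, shared 559 of the 576 calls, and moved the median of the seed storage genes to -1.60; the cause was not tested. Undoing the shrinkage was an approximation with a normal prior, chosen after seeing the data. Among 18369 genes with a mean level of at least 10 in both tissues it gave 1144 and 1165, and shared 510 calls with 2 reversed. It moved the medians of ethylene (-0.18), glutathione S-transferase (-0.72) and dark and sugar starvation genes (-0.48). A level of at least 10 or at least 50 in both tissues (the second limit chosen after seeing the data), re-centring, a floor on the standard error and pseudocounts of 1 and 10 gave between 510 and 710 calls. Of 91 named genes, re-centring ended the calls of LBD39 and DHAR2, the floor those of DHAR2, DHAR1 and 4CL1, and a pseudocount of 10 those of FMO1, PR5 and GSTU24. MYB29 lost its call with the other control levels, and WRKY40, JAZ7 and UGT79B1 with the shrinkage undone. The unknown depth limits what can be said of genes near silent in a tissue.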
